A study of Mus musculus with 18 samples.

Results

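The genes described here are 38 components of the route from Toll-like receptors to NF-kB, listed by gene symbol: receptors and their co-receptors, adaptors, kinases, inhibitors and the NF-kB subunits themselves. A gene was included where the array's annotation gave its symbol to a probe set, a group of short probes for one transcript, and the probe set with the highest mean level stood for the gene. That gave 33 measured members among 12466 genes tested, and all 33 passed the filter on low signal. Ticam2, Irak4, Traf3, Chuk and Nfkb1 had no probe set under their symbol in this annotation and were not analysed here.

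The cells were bone-marrow-derived macrophages of mice lacking IL-10 (IL-10 -/-), grown for 7 days with CSF-1 from L-cell conditioned medium, and described by the submitters as more than 95% mature macrophages. CSF-1 was then removed, and cells were given 100 ng/ml LPS, with or without 10 ng/ml recombinant IL-10, for 10, 20 or 30 min. The 6 groups are therefore LPS alone at each time and LPS plus IL-10 at each time, with 3 arrays a group. All 6 groups share the IL-10 deficiency and the LPS, and the reference for IL-10 is cells given LPS alone, so the comparisons start at 10 min of LPS and not at rest. Each replicate number is a complete experiment of its own, run one after another with mice matched for age and sex, and is called experiment 1, 2 or 3 below.

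Toll-like receptors recognise microbial molecules. Tlr4, with Ly96 (MD-2) and Cd14, binds LPS and signals from the cell surface through the adaptors Tirap and Myd88, and after uptake through Ticam2 and Ticam1 (TRIF). Myd88 gathers the Irak kinases and Traf6, which switch on the Map3k7 (TAK1) complex and then the IkB kinases, and the NF-kB dimers that are set free enter the nucleus and transcribe inflammatory genes. These steps run on proteins that are already present in a macrophage, while several of the genes, among them Rel, Relb and Nfkb2, are also known as NF-kB targets.

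Array medians ran from 75.8 to 121.2 in the deposited signal, an intensity scaled by the submitters so that the trimmed mean of each array was 500.0. All 9 macrophage markers, such as Csf1r, Adgre1 and Lyz2, were at or above the array median on all 18 arrays, and summed markers of B cells, T cells, erythroid cells and dendritic cells reached at most 588, 348, 339 and 761. Stromal markers summed to between 1647 and 3666, and granulocyte markers, the highest of these lists, to between 5640 and 14020. The arrays for LPS alone at 20 min in experiments 2 and 3 stood apart, with lower quartiles of 38.7 and 34.1 and median rank correlations with the other arrays of 0.874 and 0.868. Leaving both out gave no call among the members in any comparison of time or treatment. Arrays of one experiment deviated from their group means together, so fits with the experiment as a block are given beside those without it.

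**Figure D1:**
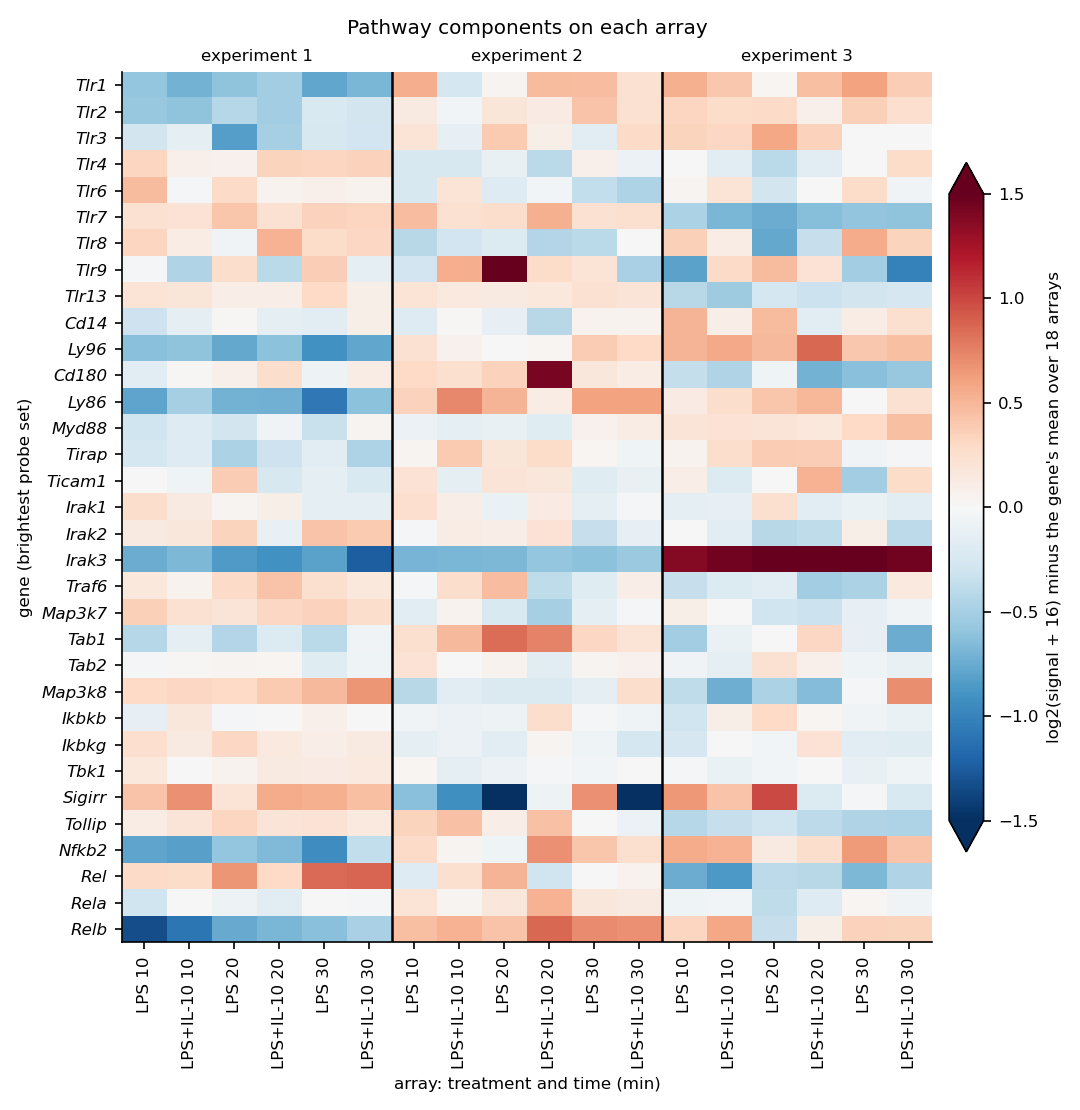
Log2 signal of each of the 33 members on each of the 18 arrays, as the difference from the member's mean over all arrays; columns are arrays ordered by experiment and, within it, by time and treatment, and colours are held at their limit beyond 1.5 log2 units. Rows such as Irak3, Relb, Ly96 and Tlr7 change colour at the borders between experiments, and Irak3 is high on all 6 arrays of experiment 3.

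Neither IL-10 nor the 20 min that separated the first and last harvest changed the level of a measured member past the threshold. In the limma fit across all probe sets (moderated test, Benjamini-Hochberg adjusted p under 0.05), 0 of 33 members were called in each of the 9 comparisons of time or treatment, without or with the experiment as a block, and no other probe set of a member was called either. Few genes of any kind were called in the same fits. With IL-10 the share of all 12466 genes called was 0% at 10 min in both fits. It was 0.016% in both fits at 20 min, and 0.016% without and 0.0401% with the block at 30 min. Averaged over times it was 0.016% without and 0.0241% with the block. Between 30 and 10 min it was 0.0401% without and 0.168% with the block in LPS alone, and 0.0481% and 0.257% in LPS plus IL-10. Over both treatments it was 0.0321% and 0.0882% from 10 to 20 min, and 0.0722% and 0.417% from 10 to 30 min. For the change of the IL-10 effect between 10 and 30 min it was 0.00802% and 0.016%. Against shares this low, 0 of 33 is not a result particular to the members.

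At an unadjusted p under 0.05 in limma, 1 member stood out without the block from 10 to 30 min over both treatments (Map3k8), and 5 with it (Tlr2, Tlr4, Myd88, Irak1 and Map3k8), where 2.72% and 7.16% of all probe sets did so. In LPS plus IL-10 alone the counts over the same interval were 1 and 4, against 2.31% and 5.81% of probe sets. For the IL-10 comparisons the count was 0 at each time without the block, and 1, 3 and 1 at 10, 20 and 30 min with it. The shares of all probe sets with the block were 3.57%, 7.81% and 2.82%, and the members' counts were near these. The members' median log2 difference from 10 to 30 min was -0.03, the same as that of all genes, -0.03, and 15 of 33 were higher at 30 min. For IL-10 averaged over times the median was -0.01, against 0.00 for all genes, and 15 of 33 were higher with IL-10.

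The blocked fit bounds how far the signal of the members' brightest probe sets can have moved. The 95% interval of the log2 difference lay between -1 and 1 for 33 of 33 members from 10 to 30 min over both treatments. The same held for IL-10 averaged over times. For bright probe sets these limits are close to a doubling or halving of the signal. For dim ones they stand for a larger change, because a constant was added to the signal before the logarithm. At each single time the IL-10 interval lay between -1 and 1 for 31 of 33 members. The exceptions were Tlr9 and Sigirr, both dim on these arrays. Without the block the intervals were wider, and the counts were 30, 31 and, at each single time, 23 of 33. Within 1 treatment from 10 to 30 min, the blocked interval lay between -1 and 1 for 31 of 33 members in LPS alone. In LPS plus IL-10 it did so for 30 of 33, and Tlr9, Map3k8 (0.39 to 1.09) and Sigirr were outside. Some dimmer probe sets also reached farther. With time, the blocked interval was -1.26 to 0.002 for a probe set of Ikbkb and -0.33 to 1.11 for a probe set of Traf6. The same Ikbkb probe set was at -1.55 with IL-10 at 20 min (-2.44 to -0.66), not past the threshold. Intervals are for single genes and were not widened for their number.

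**Figure D2:**
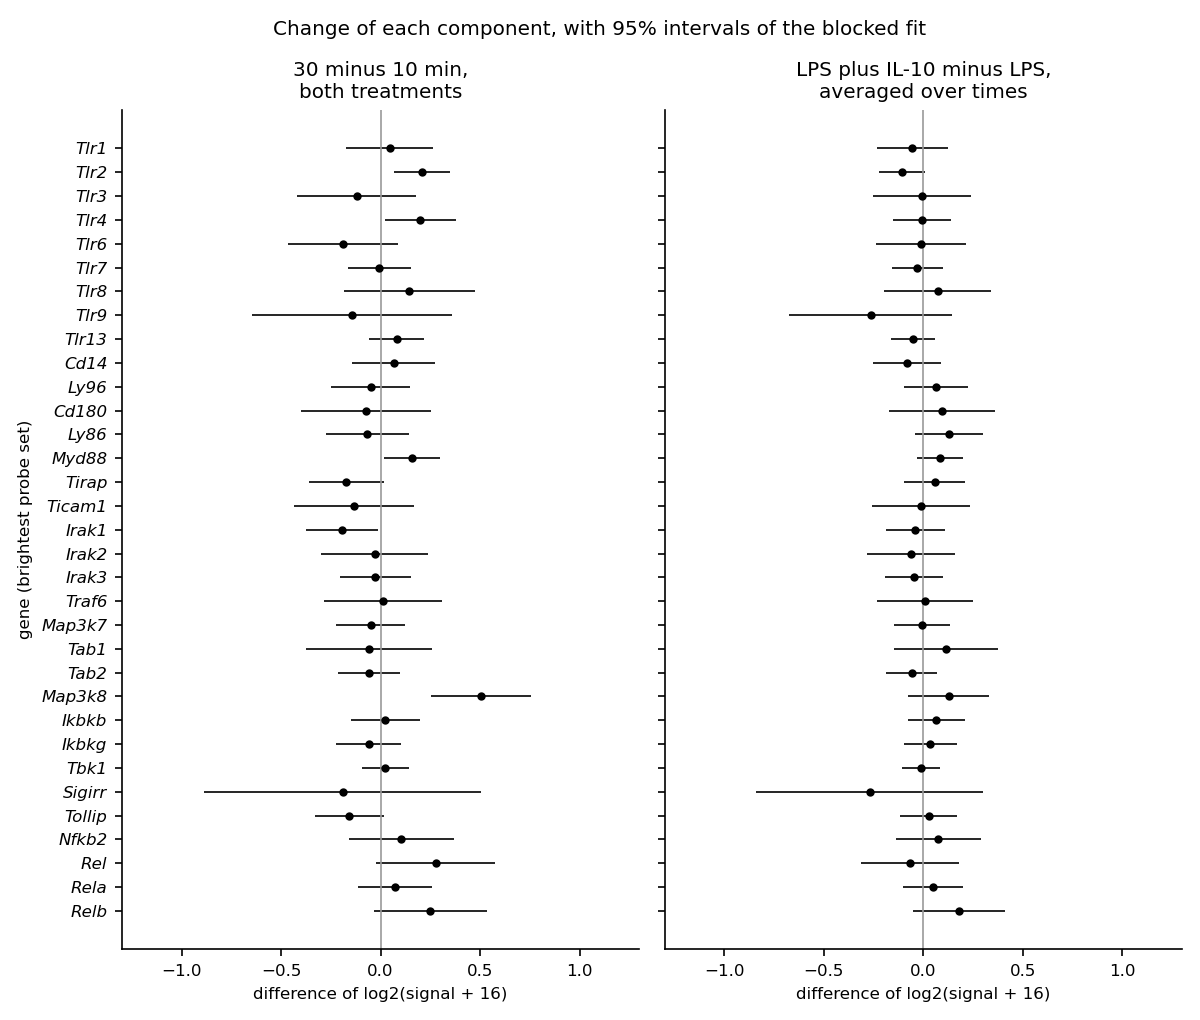
Log2 difference of each member with its blocked 95% interval, from 10 to 30 min over both treatments and for LPS plus IL-10 against LPS averaged over times. Map3k8 lies farthest from 0 with time at 0.50, and every interval stays within 1 log2 unit of 0.

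Among the surface receptors, Tlr4, which binds LPS through Ly96, had a mean signal of 1996 ± 394 (SD, n = 3) in LPS alone at 10 min, 1756 ± 288 at 20 min and 2134 ± 255 at 30 min. With IL-10 the means were 1796 ± 210, 1874 ± 507 and 2213 ± 349. The groups overlapped, and the log2 difference from 10 to 30 min was 0.20 (blocked SE 0.08, blocked adjusted p = 0.626, limma), positive in all 3 experiments at 0.14, 0.23 and 0.23. Tlr2, which recognises bacterial lipoproteins together with Tlr1 or Tlr6, differed by 0.21 over the same interval (blocked adjusted p = 0.372, limma), with 0.34, 0.28 and 0.01 in experiments 1 to 3. Tlr6 differed by -0.19 and Tlr1 by 0.05. With IL-10, Tlr1 was at -0.35 at 10 min and 0.32 at 20 min, opposite signs at neighbouring times, and -0.05 averaged over times. Its 10 min difference was -0.13, -0.81 and -0.12 in experiments 1 to 3, and -0.12 without experiment 2. Its 20 min difference was 0.09 in experiment 1, and 0.44 and 0.42 in the experiments whose LPS arrays stood apart.

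The endosomal receptors recognise nucleic acids, Tlr3 double-stranded RNA, Tlr7 and Tlr8 single-stranded RNA, Tlr9 unmethylated CpG DNA and Tlr13 bacterial ribosomal RNA. By their brightest probe sets, Tlr7 and Tlr13 had log2 differences from 10 to 30 min of -0.01 and 0.08 and IL-10 averages of -0.03 and -0.05. Dimmer probe sets of Tlr7 were at 0.28 and 0.45 from 10 to 30 min (blocked adjusted p = 0.861 and 0.556, limma). The second of them was at 0.67 from 10 to 20 min (blocked adjusted p = 0.396, limma). Tlr9 had the widest differences and was dim: its group means ranged from 96.5 ± 33.2 in LPS plus IL-10 at 30 min to 274 ± 146 in LPS alone at 20 min (SD, n = 3). The IL-10 effect on Tlr9 was 0.50 at 10 min (-0.44, 0.83 and 1.09 in experiments 1 to 3, and 0.96 without experiment 1), -0.72 at 20 min and -0.56 at 30 min, and its change from 10 to 30 min was -1.06 (blocked adjusted p = 1.00, limma). The mean of 274 comes from 175, 442 and 205 in experiments 1 to 3, and the last 2 are the arrays that stood apart. In experiment 1, without those arrays, the IL-10 effect on Tlr9 at 20 min was -0.67. Tlr3 and Tlr8 differed by -0.12 and 0.14 from 10 to 30 min, and by -0.01 and 0.07 with IL-10 averaged over times.

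Changes of the co-receptors did not pass the threshold. Cd14, the surface protein that hands LPS to Ly96, had group means from 20618 ± 2126 in LPS plus IL-10 at 20 min to 26873 ± 5984 in LPS alone at 20 min. Its IL-10 effect at 20 min was -0.36 (blocked 95% interval -0.66 to -0.07, blocked adjusted p = 0.611, limma), with -0.16, -0.30 and -0.63 in experiments 1 to 3, of which the first holds neither array that stood apart. Its difference from 10 to 30 min was 0.07. Ly96 differed by -0.05 with time and 0.06 with IL-10. Cd180 and its partner Ly86 (MD-1), a receptor pair related to Tlr4 and Ly96, differed by -0.08 and -0.07 with time and by 0.09 and 0.13 with IL-10. Cd180 gave 2624 on 1 array, LPS plus IL-10 at 20 min in experiment 2, while the other 5 arrays of that experiment reached at most 1235.

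Of the adaptors, Myd88, which links most Toll-like receptors to the Irak kinases, was 3161 ± 542 in LPS alone at 10 min and 3348 ± 715 at 30 min, and 3205 ± 518 and 3795 ± 598 with IL-10 (SD, n = 3). Its difference over both treatments was 0.16 (blocked adjusted p = 0.631, limma), with 0.10, 0.21 and 0.17 in the 3 experiments. Tirap, which brings Myd88 to the membrane, differed by -0.17, and by -0.34 in LPS plus IL-10 alone (blocked adjusted p = 0.695, limma). Ticam1, the adaptor of the route to interferon, differed by -0.13 over both treatments and by -0.39 in LPS alone.

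Among the kinases next in line, Irak1 differed by -0.20 from 10 to 30 min (blocked adjusted p = 0.650, limma), Irak2 by -0.03 and Irak3 by -0.03. The brightest probe sets of Irak1, Tlr3, Ticam1 and Tbk1 are of kinds that can bind related transcripts. Traf6, a ubiquitin ligase, differed by 0.01, and the TAK1 complex members Map3k7, Tab1 and Tab2 by -0.05, -0.06 and -0.06. From 10 to 20 min Map3k7 differed by -0.24 (blocked adjusted p = 0.514, limma), and by -0.04 in experiment 1. The IkB kinase subunits Ikbkb and Ikbkg differed by 0.02 and -0.06, and Tbk1, the kinase that activates Irf3, by 0.02. For Tbk1 the blocked 95% interval ran from -0.09 to 0.14 with time and from -0.11 to 0.09 with IL-10, the narrowest of the 33 members.

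The inhibitors also stayed short of the threshold. Sigirr, a receptor-like inhibitor of Toll-like receptor signalling, was dim, with group means from 86.1 ± 67.5 to 150 ± 40.4, and its IL-10 effect at 30 min was -0.96. That value rests on experiment 2, with -0.09, -2.59 and -0.19 in experiments 1 to 3, and it was -0.14 without experiment 2. Tollip, which binds the Irak kinases, differed by -0.16 with time (0.03, -0.43 and -0.07 in experiments 1 to 3) and 0.03 with IL-10. Its dimmer probe set was at 0.43 with time (blocked adjusted p = 0.557, limma), with 0.21, 0.61 and 0.47, so the direction depends on the probe set. Of the NF-kB subunits, Rela, the p65 subunit of the main dimer, differed by 0.07, Rel by 0.28, Relb by 0.25 and Nfkb2 by 0.10 from 10 to 30 min. Relb was higher with IL-10 by 0.15, 0.17 and 0.22 in experiments 1 to 3, which averaged to 0.18, and its blocked 95% interval ran from -0.05 to 0.41. Rel differed by 0.59, 0.01 and 0.24 with time in the 3 experiments, and Relb by 0.65, 0.21 and -0.11.

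Map3k8 (Tpl2), the kinase that couples NF-kB activation to the ERK pathway and to production of TNF, came closest to a call. In LPS alone its signal was 1134, 686 and 699 in experiments 1 to 3 at 10 min, 1137, 785 and 653 at 20 min, and 1288, 833 and 899 at 30 min. In LPS plus IL-10 it was 1141, 820 and 546 at 10 min, 1205, 789 and 578 at 20 min, and 1465, 1105 and 1503 at 30 min. Within each experiment and each treatment the 30 min array was the highest of the 3 times, while over experiments the groups overlapped because experiment 1 was higher from the start. The log2 difference from 10 to 30 min over both treatments was 0.50 (SE 0.22, adjusted p = 1.00, limma), and with the block the SE was 0.12 and the adjusted p 0.0892. By experiment it was 0.27, 0.35 and 0.90, so experiment 3 held the largest part. In LPS plus IL-10 alone the difference was 0.74 (blocked adjusted p = 0.105, limma), and in LPS alone 0.27. The effect of IL-10 on Map3k8 at 30 min was 0.44 (blocked adjusted p = 1.00, limma), and the change of that effect from 10 min was 0.47, which did not pass the threshold.

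The members' levels can be set beside other genes of the pathway, from 6 lists of 68 genes of which 60 were tested. The limma fit called 0 genes in every comparison, with or without the block, among the 8 tested signalling partners of the LPS receptor (such as Unc93b1 at -0.02 and Hsp90b1 at -0.02 from 10 to 30 min). The same held for 13 ubiquitin and scaffold proteins (Ube2n -0.02, Ube2v1 0.04, Peli1 0.18), for the interferon branch (Irf3 -0.11, Irf5 0.06, Irf7 -0.14) and for the MAP kinase branch (Map2k1 -0.08, Map2k3 -0.06, Map2k4 -0.08). From 10 to 30 min over both treatments, 0 genes of these 4 lists had an unadjusted p under 0.05 without the block, and 2 ubiquitin and scaffold genes had one with it. The inhibitors and feedback genes of NF-kB held 0 calls of 15 without the block (2 at an unadjusted p under 0.05) and 3 with it, all higher at 30 min. They were Nfkbiz, a nuclear IkB protein (1.12), Tnfaip3, the ubiquitin-editing enzyme A20 (0.78, blocked adjusted p = 0.000132, limma), and Traf1 (1.47). Nfkbia (IkB-alpha), the inhibitor whose breakdown frees NF-kB, was at 0.07.

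The early target cytokines and chemokines of NF-kB rose. From 10 to 30 min over both treatments, 9 of 9 tested targets were higher, with a median log2 difference of 1.75. Without the block 3 were called, and 8 with it. The list was chosen with earlier results of these data known, and Il1a, also on it, was too dim to be tested. Cxcl2, a chemokine that attracts neutrophils, was 4970, 3295 and 2620 in LPS alone at 10 min in experiments 1 to 3, and 17488, 23138 and 18047 at 30 min. With IL-10 it was 5070, 2836 and 2552 at 10 min, and 18800, 20602 and 12154 at 30 min. The 10 and 30 min arrays did not overlap, and the log2 difference was 2.40 (adjusted p = 8.21e-06, limma). Ier3 rose by 1.75 and Cxcl1 by 2.62 (adjusted p = 5.97e-06 and 0.0126, limma), and Tnf was called only with the block, at 1.70. In the IL-10 comparison averaged over times limma called 0 of the 9 targets, with 1 at an unadjusted p under 0.05 without the block and 4 with it, against 1.56% and 4.21% of all probe sets. On the same arrays every component's blocked interval from 10 to 30 min over both treatments, by its brightest probe set, stayed below 1. The median target stood at 1.75. In LPS plus IL-10 alone the blocked interval of Map3k8 reached 1.09.

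**Figure D3:**
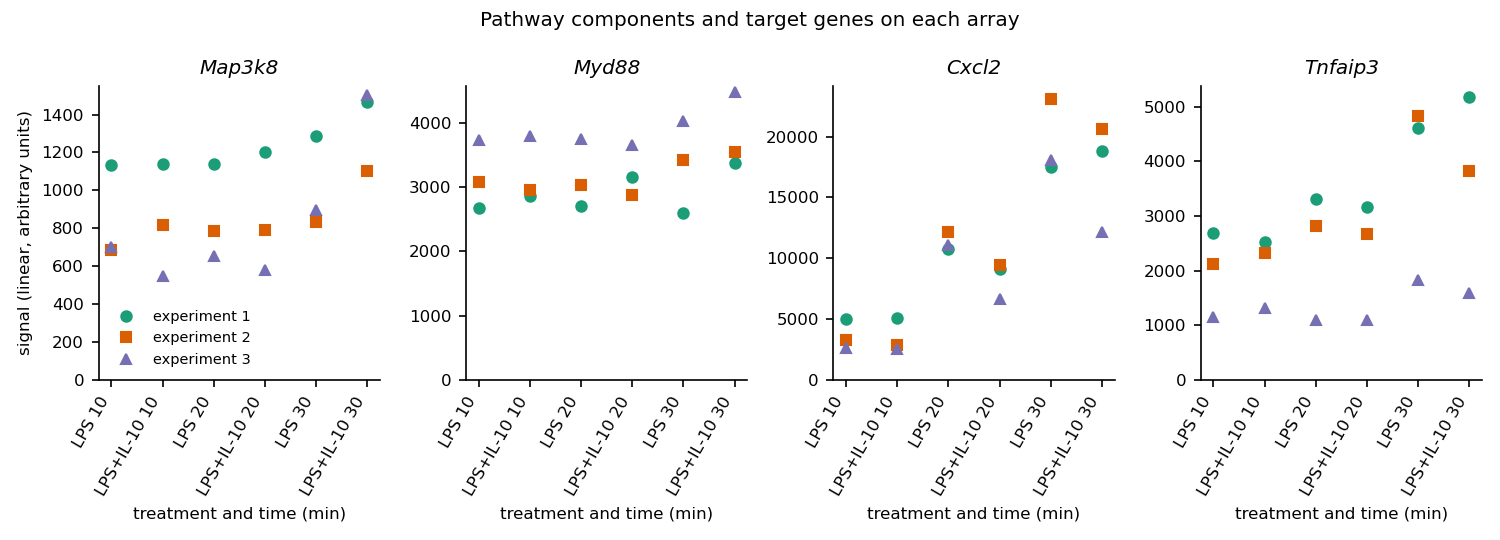
Signal in arbitrary units on a linear axis from 0 for Map3k8, Myd88, Cxcl2 and Tnfaip3 on all 18 arrays, by treatment and time, with a marker shape for each experiment. Cxcl2 rises from between 2552 and 5070 at 10 min to between 12154 and 23138 at 30 min, Myd88 lies between 2601 and 4479 throughout, and Map3k8 is highest at 30 min within each experiment.

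The promoters of the members were read to see which hold the DNA motif of NF-kB. RefSeq windows on GRCm38.p6, from 250 bases before to 50 after a transcript start, were given for 24 of the 33 measured members. The motif, spelled GGG, any pair of bases, then TTTCC, and searched on both strands, was in windows of 4 of these 24 genes (16.7%), against 1.89% of 27025 genes in the table. The members with a match were Map3k7, Nfkb2, Rel and Tlr3. It was also in 2 of 9 early targets (Cxcl1 and Cxcl2) and 3 of 12 inhibitors and feedback genes (Cyld, Nfkbia and Tnfaip3). The members' matches are shown beside those of Cxcl2 and Tnfaip3, which rose, to let the sites be compared, as 30 bases each on the strand of the gene with the motif in capitals. Nfkb2 and Cxcl2 held 2 matches each.
Nfkb2 (chr19:46304716-46304745, plus strand, 5′ to 3′): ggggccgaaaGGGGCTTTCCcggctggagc
Nfkb2 (chr19:46305695-46305724, plus strand, 5′ to 3′): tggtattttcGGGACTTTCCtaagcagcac
Rel (chr11:23771041-23771070, minus strand, 5′ to 3′): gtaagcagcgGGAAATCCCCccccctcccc
Map3k7 (chr4:31964005-31964034, plus strand, 5′ to 3′): ccccgggtcaGGAAATTCCCcgctcgggtc
Tlr3 (chr8:45410572-45410601, minus strand, 5′ to 3′): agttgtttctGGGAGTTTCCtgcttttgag
Cxcl2 (chr5:90903792-90903821, plus strand, 5′ to 3′): cctgagctcaGGGAATTTCCctggtccccg
Cxcl2 (chr5:90903811-90903840, plus strand, 5′ to 3′): cctggtccccGGGCTTTTCCagacatcgtg
Tnfaip3 (chr10:19015403-19015432, minus strand, 5′ to 3′): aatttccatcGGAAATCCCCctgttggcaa
In Rel, Map3k7 and Tnfaip3 the motif lies on the opposite strand and so reads as its reverse complement. Rel and Tnfaip3 carry the same 10 bases, and from 10 to 30 min Tnfaip3 was at 0.78 and Rel at 0.28. Map3k7 and Nfkbia, whose site is not shown, also share their 10 bases, and neither gene was called. Nfkb2 was at 0.10, Map3k7 at -0.05 and Tlr3 at -0.12, and none of the 4 members was called. A match is only a run of letters, and binding was not measured. The STAT motif TTCNNNGAA, considered because IL-10 signals through Stat3, was in windows of 5 of the 24 members (Myd88, Nfkb2, Tlr1, Tlr6 and Tlr8, 20.8%), against 9.55% of genes, and those 5 had average IL-10 differences of 0.08, 0.08, -0.05, -0.01 and 0.07.

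What set the arrays apart for these genes was the experiment. In a limma F test for differences between the 3 experiments, with the 6 groups in the model, 27 of 33 members were called, while 56.2% of all genes were. By their brightest probe sets, the 6 members not called were Tlr6, Tlr9, Ticam1, Irak1, Tab2 and Ikbkb. Dimmer probe sets of Ikbkb (adjusted p = 0.000458 and 0.00855, limma F test) and of Irak1 (adjusted p = 0.0324, limma F test) were called. Those of Ikbkb were near the floor, at or above the array median on only 5 and 9 of 18 arrays. Its second brightest probe set was not called (adjusted p = 0.389, limma F test). The median share of a member's sum of squares that lay between experiments was 62.6%, against 5.99% for time, 1.07% for treatment, 3.81% for their interaction and 18.5% for the remainder. Over all genes the median shares were 42.9% for experiment and 33.1% for the remainder. The members were also brighter than other genes, with a median of their mean signals of 1087 against 550.5, and among probe sets passing a filter at the 75th percentile the calls were 23 of 26 members against 74.6% of probe sets. Without experiment 1 the calls fell to 11 of 33 members, against 22 without experiment 2 and 19 without experiment 3. Over all probe sets the share called, 51.7% with all 3, moved likewise, to 20.2%, 46.4% and 40.7%.

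**Figure D4:**
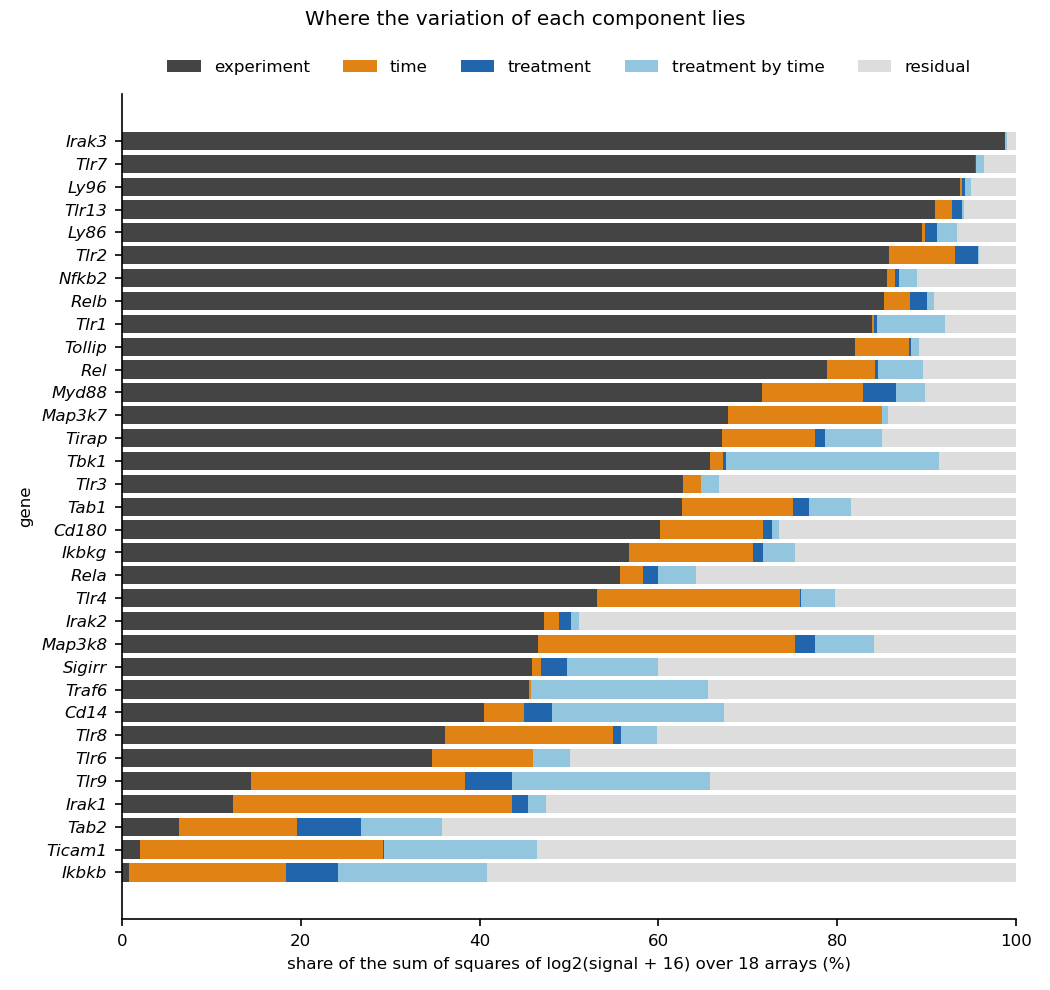
Share in percent of each member's total sum of squares, on log2 signal over 18 arrays, lying between experiments, times, treatments, in their interaction and in the remainder. The experiment takes the largest share for most members, up to 98.7% for Irak3, and little for Ticam1, Tab2 and Ikbkb.

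Irak3 (IRAK-M), an inhibitor of Toll-like receptor signalling found mainly in monocytes and macrophages, differed most. Its brightest probe set gave 578 to 863 with a median of 776 on the 6 arrays of experiment 1, and 852 to 936 with a median of 882 in experiment 2. In experiment 3 it gave 3616 to 4350 with a median of 3958. Every array of experiment 3 was thus far above every array of the others, whatever the time or treatment. The log2 difference between experiments 3 and 1 was 2.38 (SE 0.09). Over all 3 experiments the adjusted p was 8.78e-13 (limma F test). Ranked by the range of its experiment means, Irak3 was 47 of 12466 genes. Its second, dimmer probe set was also highest in experiment 3, at 593 ± 293 (SD, n = 6 arrays) against 318 ± 44.5 and 185 ± 60.2, but its arrays overlapped.

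The LPS receptor partners differed in another order. Ly96 gave 603 to 750 in experiment 1 with a median of 700, 1146 to 1489 in experiment 2 with a median of 1269, and 1519 to 2098 in experiment 3 with a median of 1621. No 2 experiments overlapped for Ly96, and the log2 difference between experiments 3 and 1 was 1.26 (adjusted p over all 3 experiments = 1.51e-08, limma F test). Ly86 was low in experiment 1 as well, at 2788 to 4143 with a median of 3585, against 6370 to 9678 in experiment 2 and 5873 to 8282 in experiment 3. Tlr1 and Tlr2 followed the same direction, with means of 592 ± 39.8 and 4185 ± 462 in experiment 1, and of 1245 ± 162 and 6785 ± 440 in experiment 3 (SD, n = 6 arrays). Tlr4 went the other way and by less, with 2302 ± 212 in experiment 1 and 1731 ± 197 and 1852 ± 303 in the others. Its second probe set was highest in experiment 3, at 2193 ± 330, so the order for Tlr4 depends on the probe set.

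Tlr7 and Tlr13, both endosomal receptors, were low in experiment 3. Tlr7 gave 2221 to 2557 in experiment 1 with a median of 2314, 2227 to 2769 in experiment 2 with a median of 2273, and 1133 to 1368 in experiment 3 with a median of 1237. Experiment 3 lay below every other array for Tlr7, a log2 difference of -0.92 from experiment 1 (adjusted p over all 3 experiments = 9.13e-09, limma F test). That holds for its brightest probe set, and the dimmer ones were not called (adjusted p = 0.234 and 0.124, limma F test). Tlr13 was 5169 ± 313, 5222 ± 140 and 3644 ± 270 in the 3 experiments. Tollip, the inhibitor that binds the Irak kinases, had the same pattern at 1928 ± 98.2, 1956 ± 310 and 1274 ± 56.4, while Myd88 was highest in experiment 3, at 3907 ± 307 against 2892 ± 305 and 3151 ± 266.

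The NF-kB subunits did not share one order. Relb, partner of the p52 product of Nfkb2 in the non-canonical pathway, gave 257 to 475 in experiment 1 with a median of 399, 901 to 1232 in experiment 2 with a median of 1025, and 524 to 1005 in experiment 3 with a median of 842. Experiment 1 lay below all other arrays, and experiments 2 and 3 overlapped. Nfkb2 gave 343 to 515, 638 to 1084 and 739 to 1049, low in experiment 1 like Relb. Rel (c-Rel) ran the opposite way at 299 to 463, 196 to 354 and 128 to 183 with medians of 350, 251 and 161, so that every array of experiment 3 was below every array of the others. Rela differed least of the 4, with means of 2450 ± 190, 3033 ± 372 and 2414 ± 239 (SD, n = 6 arrays).

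**Figure D5:**
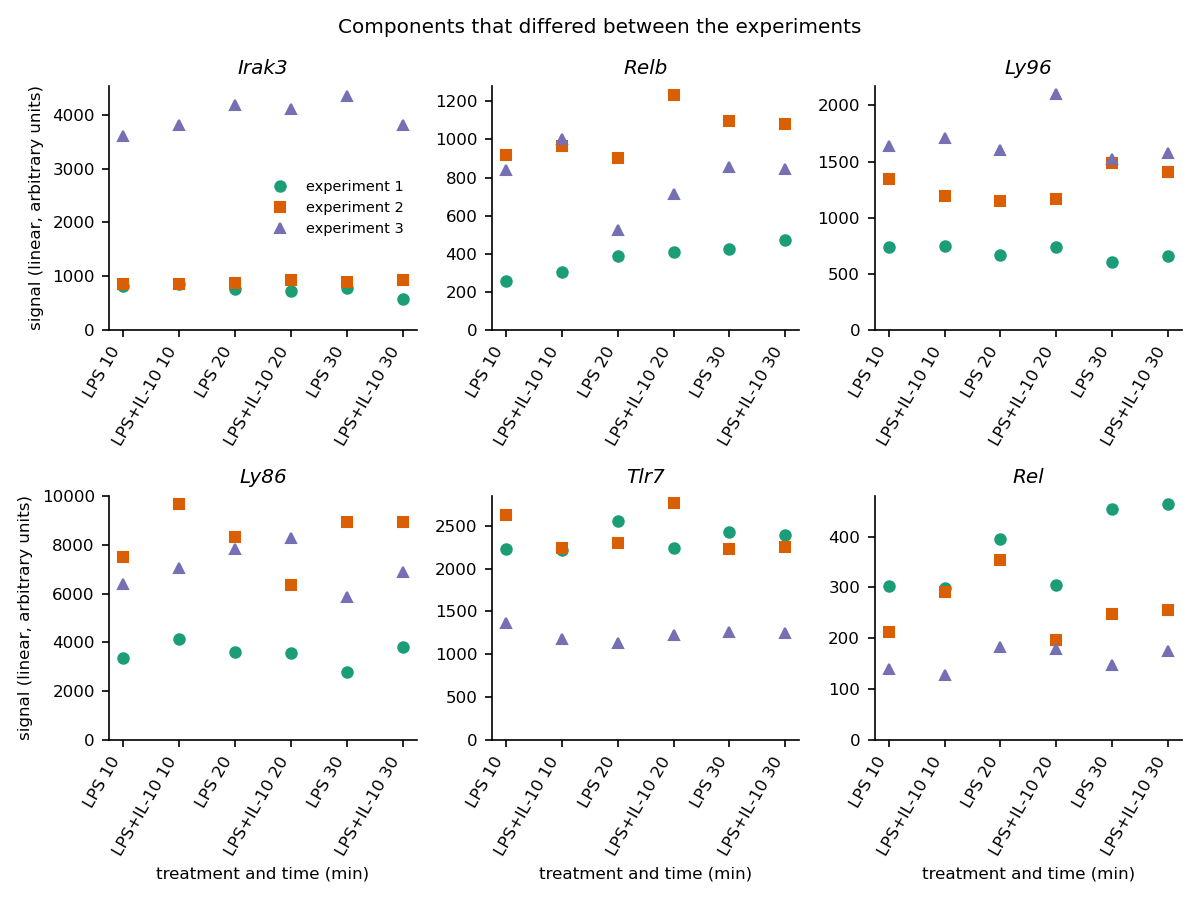
Signal in arbitrary units on a linear axis from 0 for Irak3, Relb, Ly96, Ly86, Tlr7 and Rel on all 18 arrays, by treatment and time, with a marker shape for each experiment. Irak3 lies between 3616 and 4350 in experiment 3 and reaches at most 936 elsewhere, Tlr7 and Rel are lowest in experiment 3, and Relb, Ly96 and Ly86 are lowest in experiment 1.

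Of the kinases, Map3k8 was higher in experiment 1, at 1228 ± 131 against 836 ± 141 and 813 ± 360 (SD, n = 6 arrays), and Map3k7 likewise at 1309 ± 61.8 against 959 ± 126 and 994 ± 114. Ikbkg, the regulatory subunit of the IkB kinase, was 1357 ± 78.0, 1107 ± 77.6 and 1144 ± 141. Ikbkb, the catalytic subunit, had means of 2539 ± 181, 2497 ± 250 and 2510 ± 350, and Tab2 had 5004 ± 287, 5246 ± 438 and 5083 ± 499. The Ikbkb and Tab2 levels, from the brightest probe sets, lay within the spread of the arrays. The Ikbkb probe sets that were called were near the floor. Counted over members, 8 lay apart in experiment 1 on every array (Tlr1, Tlr2, Ly96, Ly86, Tirap, Map3k7, Nfkb2 and Relb), 1 in experiment 2 (Rela) and 7 in experiment 3 (Tlr7, Tlr13, Ly96, Myd88, Irak3, Tollip and Rel). The shares of all genes were 13%, 5.17% and 9.5%.

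Summed markers of other cells also differed between experiments. Dendritic cell markers summed to 280 to 447 in experiment 1, 509 to 761 in experiment 2 and 273 to 660 in experiment 3, and T cell markers to 55.5 to 168, 184 to 348 and 162 to 338. Stromal markers summed to 1647 to 2304, 2256 to 3666 and 1896 to 2617, so for these lists experiment 2 reached highest. B cell markers reached highest in experiment 3, at 266 to 357, 258 to 568 and 349 to 588. Of the B cell, T cell and dendritic cell markers, 0 were at or above the array median on all arrays, so these sums are near the floor. The highest B cell and T cell sums were in LPS alone at 20 min, the group of the arrays that stood apart. The summed signal of 7 granulocyte genes was 7038 to 8584 in experiment 1, 11855 to 14020 in experiment 2 and 5640 to 9085 in experiment 3, most of it from S100a8 and S100a9, while Mpo and Elane never exceeded 424 and 224. The summed macrophage markers were 96970 to 125861, 123926 to 150402 and 110031 to 174461. Experiment 2 was highest for the granulocyte sum on every array, as it was by mean for 8 of the called members, Tlr7, Tlr13, Cd180, Ly86, Tab1, Tollip, Rela and Relb. For Tlr7, Tlr13 and Tollip experiments 1 and 2 were nearly level, and Irak3, Ly96 and Rel had their extremes in experiments 1 and 3. The part of these cells in the members' differences was not tested. In RNA from whole cultures, more cells of a type and more RNA per cell cannot be told apart. Mice, medium, culture and array processing changed together from one experiment to the next and cannot be told apart.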

How the data were processed

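Total RNA of 18 cultures was labelled by the standard Affymetrix protocol and hybridised to 18 one-colour arrays, per the labels' protocols. The deposited values are intensities, 1 signal per probe set, and GCOS 1.4 is the software named in the submitters' processing notes. Which signal algorithm it ran is not stated there. Equal trimmed means of 500.0 (2% from each end) show that arrays were scaled to a common level before deposit. Probe sets were named from GEO's platform annotation: of 45101, 34958 had 1 symbol, 932 several and 9211 none. No array depth exists, and the number of arrays limits the precision.

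Values were analysed as log2(signal + 16) with limma 3.58.1 in R 4.3.3 (lmFit, eBayes with an intensity trend), over 27062 probe sets at or above the array median on at least 3 arrays. The 64 control probe sets were left out, a step not written into the design. Fold changes on this scale understate changes of dim genes. The fit had 1 coefficient per group (12 residual degrees of freedom); a second fit added the experiment as a block (10). P-values were adjusted by Benjamini-Hochberg over all tested probe sets of a comparison, with a threshold of 0.05, over 10 comparisons. Without the block, p-values measure the spread between the 3 experiments within a group. With the block, and in the F test, they measure the spread left after groups and experiments are fitted. Replicate numbers pair the arrays: the labels call each number an independent experiment, and deviations from group means correlated by 0.20 to 0.64 (median 0.46) in 45 same-numbered pairs and by -0.47 to 0.07 in 90 others.

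The 33 measured members have 67 probe sets, of which 61 were tested. The members and the pathway and marker lists were chosen with earlier results of these data known. Members named are those called, up to 5 with the largest difference in each direction, and the LPS receptor, its adaptors and NF-kB subunits throughout; of the pathway lists, called genes and the first 3 tested. Alternatives were quantile normalisation, pseudocounts of 1 and 64, other filters, no trend, the block, other probe sets, only the groups compared, each experiment left out, and 2 arrays left out. The procedure was tested on simulated data.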

Additional observations from a re-analysis of the deposited data

How the results depend on the processing

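For the 9 comparisons of time or treatment, 0 of 33 members were called by limma in all 152 combinations of comparison and alternative, and the smallest adjusted p of a member was 0.085, for 30 against 10 min over both treatments without replicate 3 and with the replicate block. With the replicate block in place of the fit without it, the count stayed at 0 in each of the 9. The alternative with only the groups compared does not apply to the IL-10 average, which uses all arrays. One addition, the block together with leaving out both LPS arrays that stood apart, was chosen after seeing the data. The count of members that differed between experiments was 27 of 33, and 24 to 29 under the alternatives that kept all 3 experiments and all 33 members, where 29.9% to 52.3% of probe sets were called. With the filter at the 75th percentile it was 23 of 26, against 74.6% of probe sets. With 1 experiment left out it was 11 to 22, against 20.2% to 46.4%. Of 772 single values checked for 90 member differences, 763 kept their direction and side of the threshold and 9 changed sign, all when 1 experiment was left out. Their ranges over the omitted experiments, on the log2 scale, were -0.43 to 0.95 for Sigirr with IL-10 at 20 min, -0.013 to 0.43 for Ticam1 with IL-10 at 30 min, -0.019 to 0.26 for Cd180 and -0.17 to 0.028 for Cd14 with IL-10 over all times, -0.29 to 0.71 for Sigirr from 10 to 30 min in LPS alone, -0.39 to 0.026 for Tlr8 and -0.18 to 0.035 for Irak2 from 10 to 20 min, -0.37 to 0.048 for Sigirr from 10 to 30 min, and -0.066 to 0.40 for Tlr3 in how the IL-10 effect changed; the cause was not tested. Quantile normalisation moved the median of all genes by less than 0.1 in each comparison. In the blocked fit Tlr9 and Sigirr, the dimmest members, have the widest intervals. Without the block Irak3 has the widest, with an SE of 0.93 for IL-10 at 30 min, against 0.66 for Sigirr and 0.39 for Tlr9.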
